A study of Homo sapiens with 11 samples.

Results

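DUSP4, DUSP6, SPRY2, SPRY4, SPRED1, ETV4, ETV5, PHLDA1, IER3 and EGR1 are genes whose transcription follows the activity of the MAP kinase (RAS, RAF, MEK, ERK) cascade, and several of their products feed back on it. These 10 genes were chosen by name, not by a measured value, from 20037 protein-coding genes with a position in the RefSeq annotation (GRCh38.p14). A locus was the gene body with 50 kb on either side, and every peak sharing at least 1 bp with it was counted. Chromatin immunoprecipitation followed by sequencing had been done in 92-1 cells, an established uveal melanoma line, with antibodies against acetylated lysine 27 of histone H3 (H3K27ac, a mark of active promoters and enhancers), the BAF complex ATPase SMARCA4, and SOX10, MITF and TFAP2A, which are transcription factors. Cells had received DMSO, the solvent, or FHT-1015, an inhibitor of both SMARCA4 and SMARCA2, for 4 h. Both groups were the same line, and the labels named no dose and no genetic change. Each of the 5 antibodies had 1 library in each of the 2 conditions, with 1 DMSO input library besides, so every difference below is between a pair of libraries and has no replicate check or test.

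When ERK is active it phosphorylates transcription factors that switch on a set of output genes within minutes to hours. Among them are the dual-specificity phosphatases, which remove phosphate from ERK, and the Sprouty and Spred proteins, which act upstream on RAS and RAF, so that the pathway restrains itself. In uveal melanoma the cascade is typically driven by activating mutations of the G protein alpha subunits GNAQ or GNA11, and levels of these output genes are widely used as a readout of pathway activity. MITF and SOX10 direct the pigment cell programme and TFAP2A works with them in neural crest derivatives. RNA was not measured in these libraries, so the values below concern binding and acetylation only, and in bulk chromatin fewer cells with a bound site and less binding per cell cannot be told apart.

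The identity of the cells was checked with H3K27ac in DMSO. All 7 pigment lineage genes examined (PMEL, MLANA, TYRP1, TYR, DCT, MITF and SOX10) had H3K27ac peaks, covering between 5.05 and 108 kb with a median of 12.4 kb per locus. The 5 genes of other lineages (ALB, CD3E, KRT5, MYH6 and GFAP) had 0 peaks. Library depth relative to the input, recovered from the peak values, ranged from 0.589 (MITF, FHT-1015) to 1.124 (SOX10, FHT-1015). The SOX10 library was deeper with FHT-1015 than with DMSO (1.124 against 0.982) and the MITF library shallower (0.589 against 0.690), and the part of depth in the results was not tested. Efficiency of precipitation was not measured. A code in the deposited names is alike for the other 4 antibodies but differs for SOX10, also between its DMSO and FHT-1015 libraries. What the code stands for is not given in the sources used here, and if it marks a batch, batch and treatment cannot be told apart for SOX10.

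The 300 bases around a start show which sequence elements a promoter holds, and those of 3 members are given from RefSeq (GRCh38.p14, 250 bases before to 50 after the start, on the strand of the gene). They were picked because the start of EGR1 carries the classic serum response elements through which ERK acts, the start of SPRY2 is the one at which SOX10 coverage was higher with FHT-1015, and at the start of DUSP6 the MITF peak was not called after FHT-1015. Capitals mark motif matches.
EGR1, chr5:138465229-138465528, plus strand: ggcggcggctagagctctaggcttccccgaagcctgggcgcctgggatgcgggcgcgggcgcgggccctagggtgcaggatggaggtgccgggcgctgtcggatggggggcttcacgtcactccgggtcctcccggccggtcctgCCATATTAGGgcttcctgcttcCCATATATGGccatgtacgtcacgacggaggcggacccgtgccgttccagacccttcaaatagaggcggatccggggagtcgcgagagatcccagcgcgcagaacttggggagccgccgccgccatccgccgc
SPRY2, chr13:80341077-80341376, minus strand: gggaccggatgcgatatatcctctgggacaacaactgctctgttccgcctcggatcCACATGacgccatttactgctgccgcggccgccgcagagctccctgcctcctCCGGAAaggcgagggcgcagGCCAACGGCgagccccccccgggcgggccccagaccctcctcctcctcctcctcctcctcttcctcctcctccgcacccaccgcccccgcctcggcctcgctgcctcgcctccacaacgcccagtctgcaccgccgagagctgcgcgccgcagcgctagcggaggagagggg
DUSP6, chr12:89352452-89352751, minus strand: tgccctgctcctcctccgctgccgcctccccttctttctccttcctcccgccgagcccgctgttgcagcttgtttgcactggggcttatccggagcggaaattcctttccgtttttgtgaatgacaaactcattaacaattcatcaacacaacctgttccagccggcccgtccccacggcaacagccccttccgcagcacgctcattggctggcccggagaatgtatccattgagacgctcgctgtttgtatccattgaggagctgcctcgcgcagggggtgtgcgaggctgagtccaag
The motifs searched on both strands were the CArG box (core of the serum response element), the ETS core CCGGAA, the cyclic AMP response element TGACGTCA, the E-boxes CACGTG and CATGTG, the AP-2 motif GCCNNNGGC, the SOX motifs ACAAAG and ACAATG, and the AP-1 motif TGANTCA. EGR1 held 2 CArG boxes, which begin at positions -105 and -83 from the start, and a CArG box was found in 1.29% of 35116 promoters of the same length. SPRY2 has 3 promoters in the table, of which the one at the outer end of the gene is printed. It held an E-box at -194 (CACATG, the reverse complement of CATGTG, found in 11.1% of promoters), an ETS core at -142 (17.2%) and an AP-2 motif at -122 (23.2%), none of which overlap. The other 2 SPRY2 promoters each held a SOX motif ACAAAG (at -154, as CTTTGT, and at -116), found in 16.1% of promoters. The DUSP6 window held no match to these letters, which says nothing about the factors. Promoter sequences were matched for 6 of the 10 members. Of the others among these, PHLDA1 held an ETS core at -89, SPRED1 an AP-2 motif at -193, and SPRY4 no match.

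At the 10 loci together SOX10 peaks numbered 134 in DMSO and 66 in FHT-1015, the largest difference among the 5 antibodies. SOX10 had fewer peaks with FHT-1015 at 10 of 10 genes. H3K27ac went from 103 to 92 peaks, SMARCA4 from 153 to 133, MITF from 85 to 82 and TFAP2A from 131 to 125. The ratio of FHT-1015 to DMSO peaks was thus 0.493 for SOX10, 0.893 for H3K27ac, 0.869 for SMARCA4, 0.965 for MITF and 0.954 for TFAP2A. Over the whole lists these ratios were 0.322, 0.706, 0.880, 1.04 and 0.834, so SOX10 peaks were fewer across the genome and the ratio at the feedback genes was above the genome-wide one. Among peaks with q under 0.05 MITF had 80 and 60 at the loci, a ratio of 0.750.

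**Figure D1:**
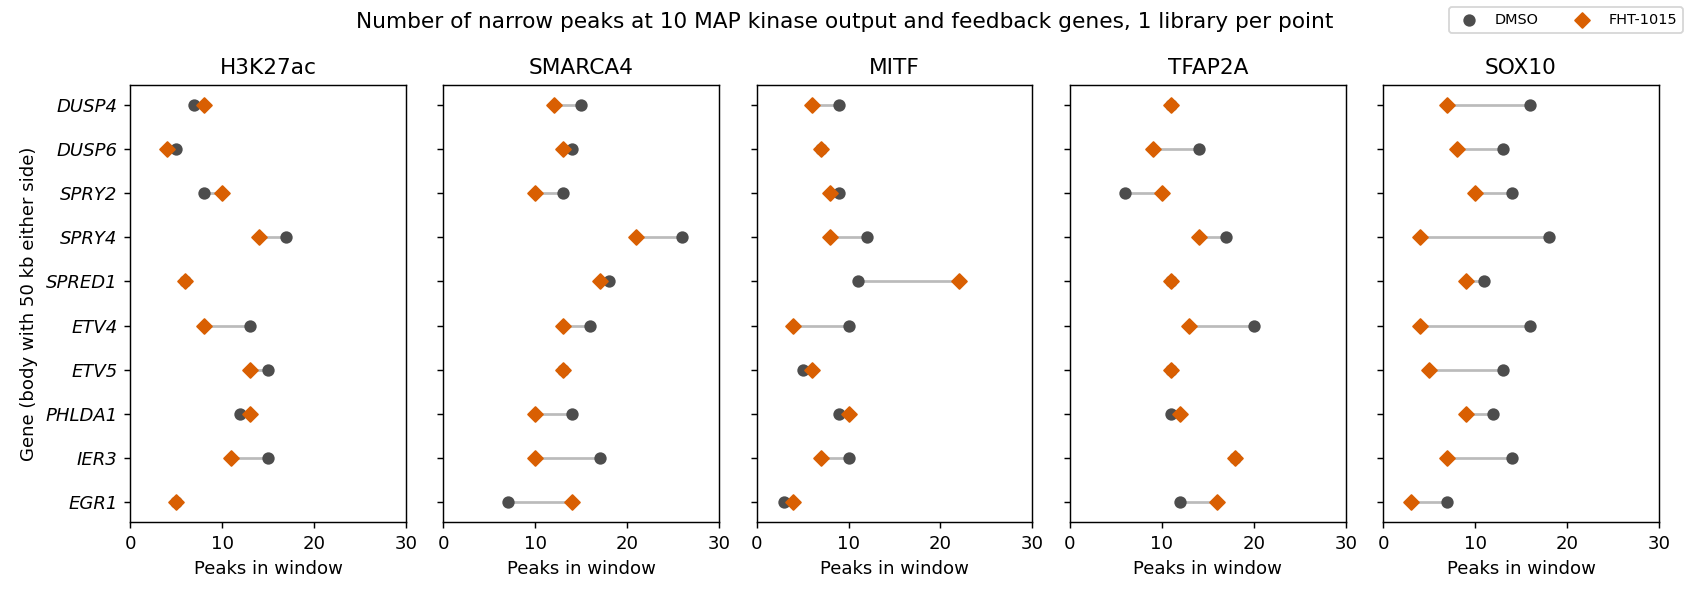
Number of narrow peaks at each gene body with 50 kb either side, 1 panel per antibody, with a point for the DMSO library and a point for the FHT-1015 library joined by a line. SOX10 points lie lower with FHT-1015 at 10 of 10 genes, whereas MITF at SPRED1 (11 and 22 peaks) and SMARCA4 at EGR1 (7 and 14 peaks) lie higher.

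A gene was called for an antibody where its peak number differed at least 2-fold between the libraries, with at least 4 peaks in the larger. For SOX10, 6 of the 10 members were called lower (DUSP4, SPRY4, ETV4, ETV5, IER3 and EGR1), and across 15762 genes 73.3% were called lower. The members' count is therefore no higher than the background. The median ratio per gene was 0.469 over the members and 0.333 over all genes with at least 4 DMSO peaks. No member was called higher for SOX10 (0 of 10, against 0.444% of genes). With the lists cut to equal number by strength, 50 DMSO and 66 FHT-1015 SOX10 peaks lay at the loci, a ratio of 1.32, since only the strongest DMSO peaks then counted.

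The other antibodies gave few calls. For H3K27ac 0 of 10 members were called lower (24.3% of 12805 genes) and 0 higher (1.63%), and the median ratio was 0.933 over the members and 0.700 over all genes. For TFAP2A 0 were called lower (10.4% of 17608 genes) and 0 higher (2.82%). SMARCA4 was called higher at EGR1 alone (1 of 10 members, against 7.55% of 15714 genes) and lower at none (8.58% of genes). MITF was called lower at ETV4 (1 of 10, against 12.9% of 16430 genes) and higher at SPRED1 (1 of 10, against 13.2%). These shares lie near or under the background.

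Numbers hide changes in width. The length covered by H3K27ac peaks went from 153923 to 119101 bp at the loci together, and the mean peak from 1494 to 1295 bp. SMARCA4 covered 88563 bp in DMSO and 91547 bp in FHT-1015, in fewer but longer peaks (means of 579 and 688 bp). SOX10 covered 74618 bp and 30144 bp, a ratio of 0.404. MITF went from 38818 to 30997 bp and TFAP2A from 79686 to 68901 bp. The covered-length ratios at the loci were 0.774 for H3K27ac, 1.03 for SMARCA4, 0.799 for MITF and 0.865 for TFAP2A. Over the whole lists they were 0.764, 1.00, 0.847 and 0.835, and 0.259 for SOX10, so that the H3K27ac ratio was near that of the list by length though not by number.

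Retained means that a DMSO peak overlapped, by 1 bp or more, a peak called for that antibody with FHT-1015. Of 134 SOX10 peaks at the loci 44 were retained, or 32.8% (95% Wilson interval 25.5 to 41.2%), and 18.3% were retained over the whole SOX10 list. The retained share was 62.1% for H3K27ac (52.5 to 70.9%), 63.4% for SMARCA4 (55.5 to 70.6%), 55.3% for MITF (44.7 to 65.4%) and 67.9% for TFAP2A (59.5 to 75.3%). Over the whole lists it was 59.3%, 52.0%, 36.2% and 54.9%. These intervals reflect counting error alone. Peaks found with FHT-1015 alone were most numerous for SMARCA4 (47), followed by TFAP2A (36), MITF (34), H3K27ac (16) and SOX10 (14).

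**Figure D2:**
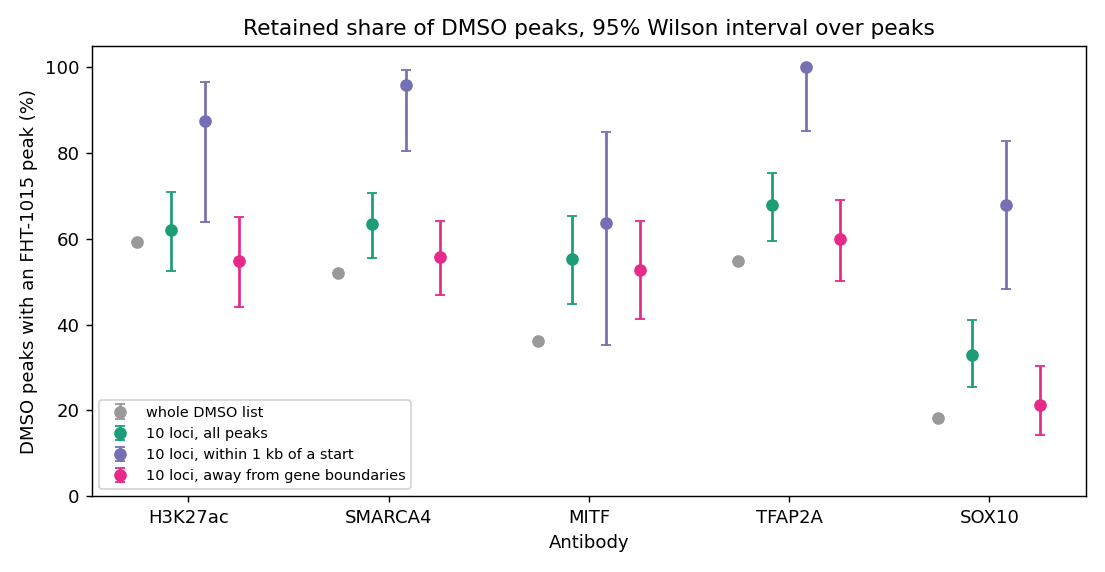
Share of DMSO peaks overlapping a peak called for that antibody with FHT-1015, in percent with 95% Wilson intervals (counting error only), for the peaks at the 10 feedback genes and over the whole list. SOX10 has the lowest share in both, 32.8% at the feedback genes and 18.3% over the list.

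The retained share differed by position. Near the starts of the members, within 1 kb, 17 of 25 SOX10 peaks were retained (68.0%, 48.4 to 82.8%). Away from starts and from the boundaries of other genes it was 21 of 99 (21.2%, 14.3 to 30.3%), and 13.2% for such peaks of the whole list. TFAP2A kept 22 of 22 peaks near the starts, SMARCA4 24 of 25, H3K27ac 14 of 16 and MITF 7 of 11. Away from the starts TFAP2A kept 60 of 100 peaks, SMARCA4 68 of 122, H3K27ac 45 of 82 and MITF 37 of 70. These are 60.0%, 55.7%, 54.9% and 52.9%, and such peaks of the whole lists had 49.8%, 44.8%, 50.5% and 32.0%. For DUSP4, ETV4, ETV5 and IER3 both ends of the gene were taken as possible starts.

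The strength of a binding site was described by its summit coverage, the recovered reads at the summit over the mean coverage of that library. At each start the highest peak within 1 kb was taken in each library. In 12 of 45 such comparisons over the 5 antibodies the highest peaks of the libraries did not overlap, and so were different sites of the same start region or gene. For DUSP4, ETV4, ETV5 and IER3 both gene ends counted as starts. The shares of all genes below used annotated starts only, so they are not quite the same measure. SMARCA4 was higher with FHT-1015 at 10 of 10 members, and at 7 of 7 where the peaks overlapped, and this held for 87.9% of all genes with a start peak in both libraries. H3K27ac was higher at 9 of 10 (7 of 7 where the peaks overlapped), against 91.8% of all genes. TFAP2A was higher at 5 of 10 (3 of 7), against 58.3%, and MITF at 3 of 6, all overlapping, against 50.6%. SOX10 was higher at 1 of the 9 members with a peak in both (SPRY2, 1 of 6 where the peaks overlapped), against 1.64% of 6575 genes. The median ratio of all genes at their starts was 0.558 for SOX10, 1.00 for MITF, 1.05 for TFAP2A, 1.41 for H3K27ac and 1.44 for SMARCA4. A start peak of DMSO was not called with FHT-1015 for SOX10 at IER3 (36.7% of genes). For MITF this happened at DUSP6 and, near the lower-coordinate gene end, at IER3 (19.7% of genes). For H3K27ac, SMARCA4 and TFAP2A this happened at 0 of 10 members (2.51%, 4.55% and 4.93% of genes).

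**Figure D3:**
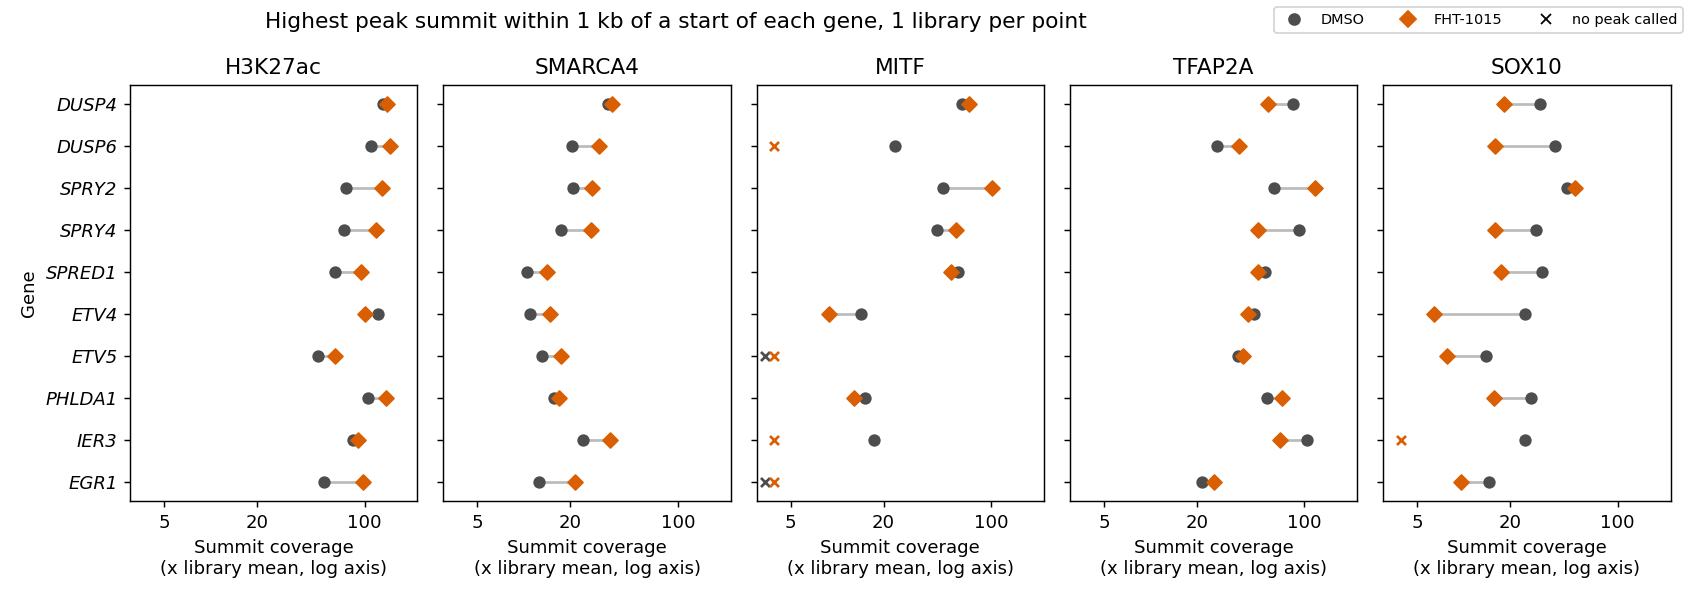
Highest summit coverage of a peak within 1 kb of a start of each gene, in multiples of the library mean on a log axis, with 1 point per library and a cross where no peak was called. The highest peaks of the libraries can be different sites (12 of 45 comparisons). For DUSP4, ETV4, ETV5 and IER3 both gene ends counted as starts. SMARCA4 is higher with FHT-1015 at all 10 genes, and SOX10 is higher at SPRY2 only (47.1 and 52.4).

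Values of overlapping start peaks follow for some members. Near the lower-coordinate end of IER3, taken as a possible start, TFAP2A was 104 and 69.5 (ratio 0.669, 0.522 to 0.855). At the start of SPRY4 the TFAP2A ratio was 0.539 (0.406 to 0.712). SMARCA4 at IER3 was 24.1 and 36.2, with an interval of the ratio of 1.01 to 2.24 that includes the median of all genes, and these IER3 peaks also lie at an end of FLOT1. H3K27ac at SPRED1 (64.6 and 94.6, ratio 1.46) and PHLDA1 (105.3 and 137.9, ratio 1.31) lay near the median ratio of all genes. Of the 3 SOX10 peaks near the ends of ETV4, one went from 21.8 to 6.44 (0.296, 0.149 to 0.553) and the others (24.9 and 11.9) had no overlapping FHT-1015 peak.

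For each gene the elements with the strongest DMSO peaks, here those with the highest −log10 p, are given. The peak with the highest summit coverage can be another, as for SOX10 at SPRY2, SPRY4 and EGR1. Since the elements were chosen by their DMSO value, the value of the antibody that chose an element is a description there. The phosphatases come first. DUSP6, the cytoplasmic phosphatase specific for ERK, lies on chromosome 12 (GRCh38, 89347235 to 89352501). SOX10 had 13 peaks in DMSO and 8 in FHT-1015, TFAP2A 14 and 9, MITF 7 and 7, SMARCA4 14 and 13, and H3K27ac 5 and 4. The window also holds POC1B. The highest SOX10 summit of the 10 loci lay inside the gene, 2.10 kb from the start, at chr12:89348959-89350404. There SOX10 coverage was 94.8 in DMSO (183 reads) and 12.9 in FHT-1015 (28 reads), a ratio of 0.136 with a counting interval of 0.0878 to 0.203. The MITF peak on the same element, 58.1 in DMSO, was not called with FHT-1015. TFAP2A went from 30.9 to 16.1 there. The SMARCA4 peaks that overlap the element were 35.1 and 30.5, but the FHT-1015 summit lay nearer the start and not on the element. The H3K27ac peak that covers the element also covers the start, and its summit coverage was 110.0 in DMSO and 146 in FHT-1015. These summits lie 370 and 360 bp from the start and not on the element, and the ratio of 1.33 is under the median of 1.41 of all genes at their starts. Over the whole locus H3K27ac covered 10914 bp in DMSO and 7998 bp in FHT-1015. The strongest TFAP2A element, chr12:89328322-89329155, 23.3 kb from the start, went from 93.3 to 19.9 for TFAP2A and from 17.3 to 7.92 for SMARCA4, and its SOX10 peak (26.4) was not called with FHT-1015. At the DUSP6 start printed above, SOX10 was 39.4 and 16.1 and MITF 23.7 and not called.

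DUSP4, a nuclear phosphatase of ERK and other MAP kinases, lies on chromosome 8 (29333064 to 29350684) with no other protein-coding gene in its window. Its SOX10 peaks numbered 16 in DMSO, of which 31.2% were retained (14.2 to 55.6%), and 7 in FHT-1015. H3K27ac had 7 and 8 peaks, SMARCA4 15 and 12, MITF 9 and 6, and TFAP2A 11 and 11. The strongest SOX10 element, chr8:29348246-29349391, inside the gene and 1.29 kb from its nearer end, went from 47.7 to 13.3. MITF on it went from 35.9 to 16.2 and TFAP2A from 109 to 45.3. The long SMARCA4 peaks that overlap it had summits of 33.6 and 37.3, and the FHT-1015 summit lay off the element. A second intragenic element, chr8:29341056-29341719, had MITF coverage of 89.0 and 44.6, TFAP2A 107 and 48.4, and SOX10 of 39.9 in DMSO with no peak in FHT-1015. Near the higher-coordinate end of DUSP4, the H3K27ac peak inside the gene was 131 and 111 (ratio 0.852, 0.707 to 1.03) and the one just outside 112 and 139 (1.25, 1.04 to 1.502).

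SPRY2, SPRY4 and SPRED1 encode the membrane-associated inhibitors that act above MEK. SPRY2 (chromosome 13, 80335976 to 80341126) was the member at whose start the coverage of all 5 antibodies was higher with FHT-1015. There MITF coverage was 48.8 in DMSO and 100.5 in FHT-1015, a ratio of 2.06 (counting interval 1.52 to 2.81). TFAP2A was 63.7 and 117, a ratio of 1.84 (1.44 to 2.37), and H3K27ac was 76.1 and 130.2, a ratio of 1.71 (1.39 to 2.11). All 3 intervals lie above 1. That of H3K27ac includes the median ratio of all genes at their starts (1.41), and those of MITF and TFAP2A lie above theirs (1.00 and 1.05). SOX10 was 47.1 and 52.4, with an interval of the ratio that includes 1 (0.837 to 1.48). The interval for SMARCA4 (20.98 and 27.7) also includes 1 (0.852 to 2.06). An outlying element of the same locus, chr13:80375843-80376549, 34.7 kb from the start, went the other way for every antibody. SOX10 was 38.3 in DMSO and not called in FHT-1015, SMARCA4 went from 23.6 to 8.48, MITF from 27.3 to 6.48, TFAP2A from 34.6 to 8.69 and H3K27ac from 22.4 to 9.67. By number SOX10 had 14 and 10 peaks at SPRY2, TFAP2A 6 and 10, MITF 9 and 8, SMARCA4 13 and 10, and H3K27ac 8 and 10.

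SPRY4 (chromosome 5, 142310430 to 142325021, alone in its window) had the most SOX10 peaks of the 10 loci without the inhibitor, 18, of which 16.7% were retained (5.84 to 39.2%), and 4 with it. H3K27ac had 17 and 14 peaks, with 27196 and 16457 bp covered, SMARCA4 26 and 21, MITF 12 and 8, and TFAP2A 17 and 14. An element outside the gene, chr5:142298772-142299362, 24.9 kb from the start, held MITF at 40.9 and 10.5, while SOX10 was 25.4 in DMSO and not called in FHT-1015. The broad stretch of H3K27ac around it, chr5:142295504-142300054, had a highest summit of 87.0 in DMSO and 31.0 in FHT-1015. The highest SOX10 summit (38.3) lay outside the gene, at chr5:142296904-142297735, and was not called with FHT-1015. The SOX10 site with the highest −log10 p, inside the gene, went from 29.0 to no peak. There MITF (25.8) and TFAP2A (16.1) were not called with FHT-1015 either, and SMARCA4 was 15.2 and 12.4. Its start showed H3K27ac at 73.5 and 119 and SMARCA4 at 17.3 and 27.1, TFAP2A at 92.1 and 49.6 and SOX10 at 29.5 and 16.1. Acetylation was thus lower at the stretch outside the gene and higher at the start, where the interval of the ratio (1.31 to 2.01) included the all-gene median of 1.41. The stretch was the strongest H3K27ac peak of the locus in DMSO, so its lower value is a description only.

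SPRED1 (chromosome 15, 38252836 to 38357249) had the highest retained shares of the 10 loci for SOX10, MITF and H3K27ac. Of its 11 SOX10 peaks in DMSO 54.5% were retained (28.0 to 78.7%), and FHT-1015 had 9. Retained shares were 90.9% for MITF and for TFAP2A (62.3 to 98.4% in both) and 100% for its 6 H3K27ac peaks. MITF peaks numbered 11 and 22, but among peaks with −log10 p of at least 10 they numbered 6 and 5, a ratio of 0.833, so the added peaks lay under that limit. SMARCA4 had 18 and 17 peaks and TFAP2A 11 and 11. The element chr15:38207064-38208237, outside the gene and 44.6 kb from its start, bound all the factors in both conditions. SOX10 there was 69.4 and 29.9, MITF 126 and 99.7, TFAP2A 117 and 93.7, SMARCA4 38.8 and 45.8, and H3K27ac 31.8 and 55.5. SOX10 had the lowest ratio of these (0.431, counting interval 0.315 to 0.583).

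ETV4 and ETV5 are ETS-family transcription factors that carry the MAP kinase output to further genes. ETV4 (chromosome 17, 43527846 to 43546340, beside DHX8) went from 16 SOX10 peaks to 4, and 12.5% were retained (3.50 to 36.0%), the lowest share of the 10. MITF went from 10 to 4 peaks, H3K27ac from 13 to 8, SMARCA4 from 16 to 13 and TFAP2A from 20 to 13. Inside the gene, chr17:43534798-43535841 held MITF at 76.1 and 15.4, a ratio of 0.202 (0.117 to 0.332), SMARCA4 at 22.02 and 9.05, and H3K27ac at 52.1 and 15.8, and neither TFAP2A (58.1 in DMSO) nor SOX10 (26.4) was called there with FHT-1015. The strongest SOX10 element, chr17:43530068-43531191, went from 58.0 to no peak, with TFAP2A at 90.2 and 22.3, while its SMARCA4 summit was 19.9 and 26.0. The H3K27ac peak at the lower-coordinate end of the gene was 121 and 110.9 (ratio 0.914, 0.756 to 1.10) and that at the other end 74.0 and 99.7 (1.35, 1.08 to 1.68). One TFAP2A element, chr17:43483551-43484144, 43.7 kb outside the gene, was higher with FHT-1015 (106 and 146, ratio 1.37, 1.12 to 1.68), and SOX10 on it was lower (41.4 and 23.4).

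ETV5 (chromosome 3, 186046314 to 186109089, beside DGKG) went from 13 SOX10 peaks to 5. TFAP2A had 11 and 11 peaks, MITF 5 and 6, SMARCA4 13 and 13, and H3K27ac 15 and 13. Its strongest MITF and SOX10 summits shared the intragenic element chr3:186080972-186081505, 27.6 kb from the nearer end. MITF there was 106 in DMSO and 16.2 in FHT-1015, a ratio of 0.153 (0.0906 to 0.244). SOX10 (54.4) and TFAP2A (14.8) were not called with FHT-1015, H3K27ac was 82.9 and 17.8, and SMARCA4 was 20.98 and 12.4. Another intragenic element, chr3:186097632-186099017, stood at TFAP2A 97.0 and 88.7, MITF 37.3 and 29.2, SMARCA4 18.4 and 31.7, and SOX10 32.6 and 18.4. The first element was chosen by its DMSO values of MITF and SOX10 and the other by that of TFAP2A, so their MITF ratios are not a like comparison. At the other the intervals of the ratio for MITF (0.496 to 1.22) and TFAP2A (0.724 to 1.15) included 1.

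**Figure D4:**
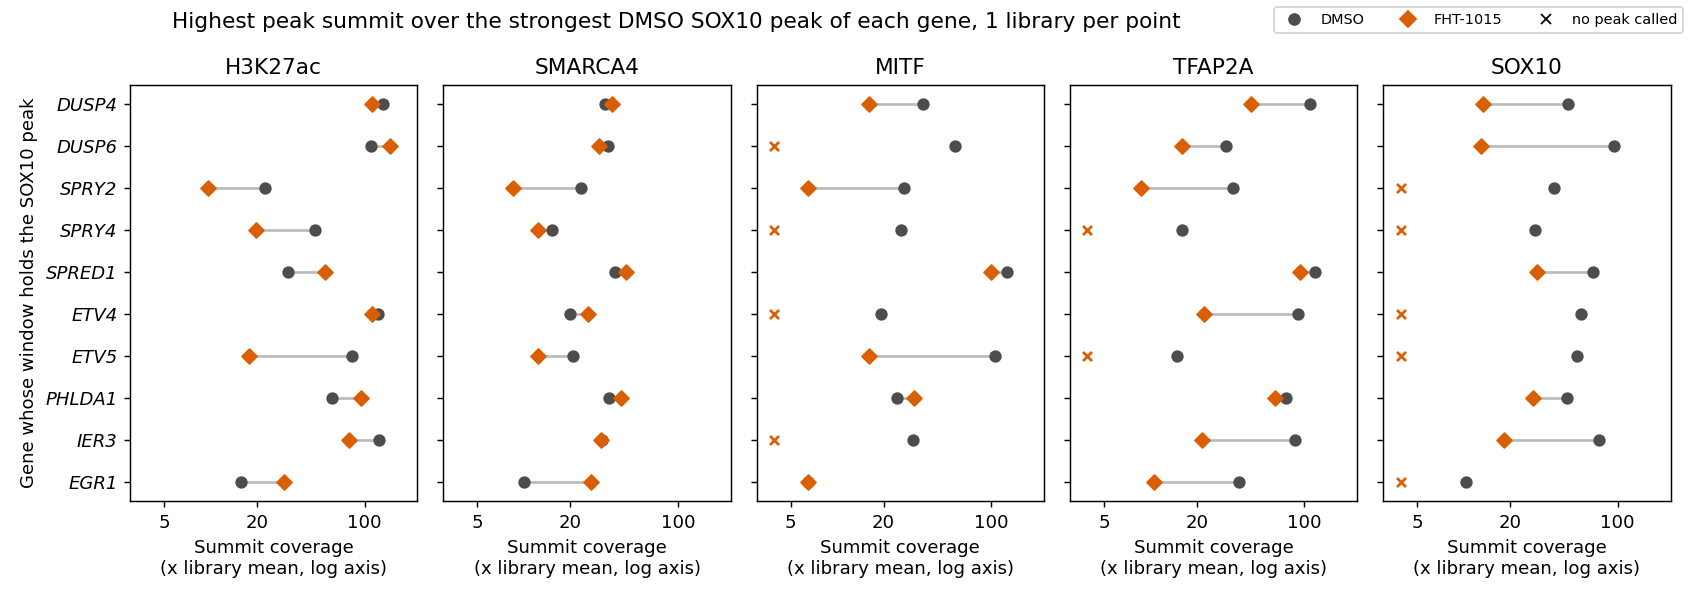
Summit coverage of the 5 antibodies at the element with the strongest SOX10 peak of each locus in DMSO, in multiples of the library mean on a log axis, with 1 point per library and a cross where no peak was called. The elements were chosen by the highest −log10 p of SOX10 in DMSO. SOX10 is lower or absent with FHT-1015 at all 10 elements. A SMARCA4 peak overlaps each of them in both libraries, though the summit of a long peak can lie off the element. By summit coverage the highest SOX10 peak of SPRY2 was at its start instead (47.1 and 52.4).

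IER3 and EGR1 are immediate-early genes, IER3 a regulator of survival and ERK dephosphorylation and EGR1 a zinc finger transcription factor. IER3 (chromosome 6, 30743199 to 30744547, with MDC1, TUBB and FLOT1 in its window) went from 14 SOX10 peaks to 7. TFAP2A had 18 and 18 peaks, MITF 10 and 7, SMARCA4 17 and 10, and H3K27ac 15 and 11. At chr6:30766437-30767008, 21.9 kb outside the gene, TFAP2A was 134 in DMSO and 21.7 in FHT-1015, a ratio of 0.162 (0.110 to 0.232), and MITF 46.6 and 9.72. SMARCA4 (20.98), H3K27ac (26.6) and SOX10 (49.2) were not called on it with FHT-1015. At the neighbouring element chr6:30763744-30764792, SOX10 was 75.6 and 18.4 and TFAP2A 86.5 and 21.7, whereas SMARCA4 was 32.0 and 31.7. At chr6:30781419-30782194 SMARCA4 was higher with FHT-1015 (27.8 and 41.3), as was H3K27ac (128 and 165), while MITF (125 and 84.3) and SOX10 (63.7 and 20.7) were lower.

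EGR1 (chromosome 5, 138465479 to 138469303, with KDM3B, REEP2 and ETF1 in its window) had the fewest SOX10 peaks in both conditions, 7 and 3, and 3 and 4 MITF peaks. H3K27ac had 5 and 5 peaks, SMARCA4 7 and 14, and TFAP2A 12 and 16. At the start with the 2 CArG boxes printed above, H3K27ac was 54.7 and 97.7, a ratio of 1.79 (1.40 to 2.29), and SMARCA4 12.6 and 21.5, a ratio of 1.71 (0.998 to 2.97). These intervals include the median ratios of all genes at their starts, 1.41 for H3K27ac and 1.44 for SMARCA4. Of the TFAP2A peaks there, one was 16.1 and 26.1 (1.62, 0.972 to 2.76) and another 21.6 and 10.5 (0.488, 0.256 to 0.894). For SOX10 the highest DMSO peak there was 14.5, and the highest FHT-1015 peak that overlaps it 12.4 (0.856, 0.485 to 1.51). That FHT-1015 peak lay more than 1 kb from the start, and the highest within 1 kb was 9.66. MITF had no peak at the start in either library. The SOX10 peak with the highest summit, chr5:138450037-138450355 (15.5), was not called with FHT-1015. That with the highest −log10 p, chr5:138492231-138492777, away from the start, was weak (10.4) and not called either. SMARCA4 at this latter element was 9.96 and 27.1 (ratio 2.72, 1.57 to 4.91). SMARCA4 was thus higher with FHT-1015 at EGR1 in peak number and at this element. Its peaks with −log10 p of at least 10 numbered 2 and 2, so the higher number came from peaks under that limit. At the start the counting interval included 1.

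PHLDA1 (chromosome 12, 76025447 to 76031776, beside NAP1L1), a pleckstrin-homology-like protein induced by growth factors, went from 12 SOX10 peaks to 9. TFAP2A had 11 and 12 peaks, MITF 9 and 10, SMARCA4 14 and 10, and H3K27ac 12 and 13. Its strongest SOX10 element, chr12:75977780-75978545, 53.2 kb from the start at the edge of the window, was 47.1 and 28.1. On it TFAP2A was 75.4 and 64.5, MITF 24.4 and 31.6, SMARCA4 35.7 and 43.0, and H3K27ac 61.0 and 94.1. Only SOX10 (0.595, 0.423 to 0.832), whose DMSO value chose the element, and H3K27ac (1.54, 1.22 to 1.96) had ratios whose counting interval excluded 1. The H3K27ac interval included 1.24, the median ratio of retained H3K27ac peaks over the whole list.

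Peaks called in DMSO alone included strong ones. For SOX10 the DMSO-only peaks with the highest −log10 p were those inside ETV5 (summit coverage 54.4), 37734 bp from the start of DUSP6 (60.6) and inside ETV4 (58.0). For MITF they were inside DUSP6 (58.1), 8555 bp outside DUSP4 (50.9) and 44678 bp outside ETV4 (33.7), and at the DUSP4 element SMARCA4 (17.3) was likewise not called with FHT-1015. For TFAP2A they were inside ETV4 (58.1), 39574 bp outside SPRED1 (37.7) and 5692 bp outside ETV4 (35.8). By the same rule those of SMARCA4 were 20.98 outside IER3, 17.3 outside DUSP4 and 14.7 outside PHLDA1, and those of H3K27ac 26.6 outside IER3, 17.2 outside ETV4 and 14.6 inside ETV5. None of these peaks lay within 1 kb of a start of its gene.

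The strongest peaks called with FHT-1015 alone had lower summits. The one with the highest −log10 p was 10.6 times the library mean for SOX10 (inside PHLDA1), 14.6 for MITF (outside PHLDA1), 15.5 for TFAP2A (4595 bp from the start of EGR1), 9.05 for SMARCA4 (inside ETV5) and 11.7 for H3K27ac (inside SPRED1). Among DMSO peaks with −log10 p of at least 10, 27 of 58 SOX10 peaks at the loci were retained, compared with 30 of 39 for MITF, 65 of 81 for TFAP2A, 36 of 39 for SMARCA4 and 45 of 51 for H3K27ac. Over the whole lists the retained shares of such peaks were 33.0% for SOX10, 61.7% for MITF, 71.5% for TFAP2A, 85.2% for SMARCA4 and 87.6% for H3K27ac. Where a peak was retained, the median coverage ratio was 0.611 for SOX10 at the loci and 0.601 over the list. SMARCA4 had medians of 1.19 at the loci and 1.16 over its list, and H3K27ac of 1.18 and 1.24. MITF had 0.847 and 0.806, and TFAP2A 0.856 and 0.904. Retained SOX10 sites were thus about as much lower at the feedback genes as elsewhere, and retained SMARCA4 and H3K27ac sites were higher in both.

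Overlapping peaks of the 10 lists were merged to count co-occupied sites, which gave 282 sites at the loci. MITF, TFAP2A and SOX10 were all present at 39 of them in DMSO and at 13 in FHT-1015. Near starts 7 of 10 such sites held the 3 factors in both libraries, and away from starts 6 of 29. SPRED1 had 3 such sites in each condition and ETV4 had 8 and 1. SOX10 was present at 80 merged sites in DMSO and absent from 60 of these with FHT-1015. Among those 60, H3K27ac had marked 32 and still marked 22, SMARCA4 had been at 31 and still was at 20, MITF at 28 and 17, and TFAP2A at 32 and 25. The retained shares of all DMSO peaks of these antibodies at the loci were 62.1%, 63.4%, 55.3% and 67.9% in the same order. They are not a like measure, because they need direct overlap of single peaks. A merged site can span several peaks, and any FHT-1015 peak of the antibody within it counted. A difference from these shares was not tested.

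**Figure D5:**
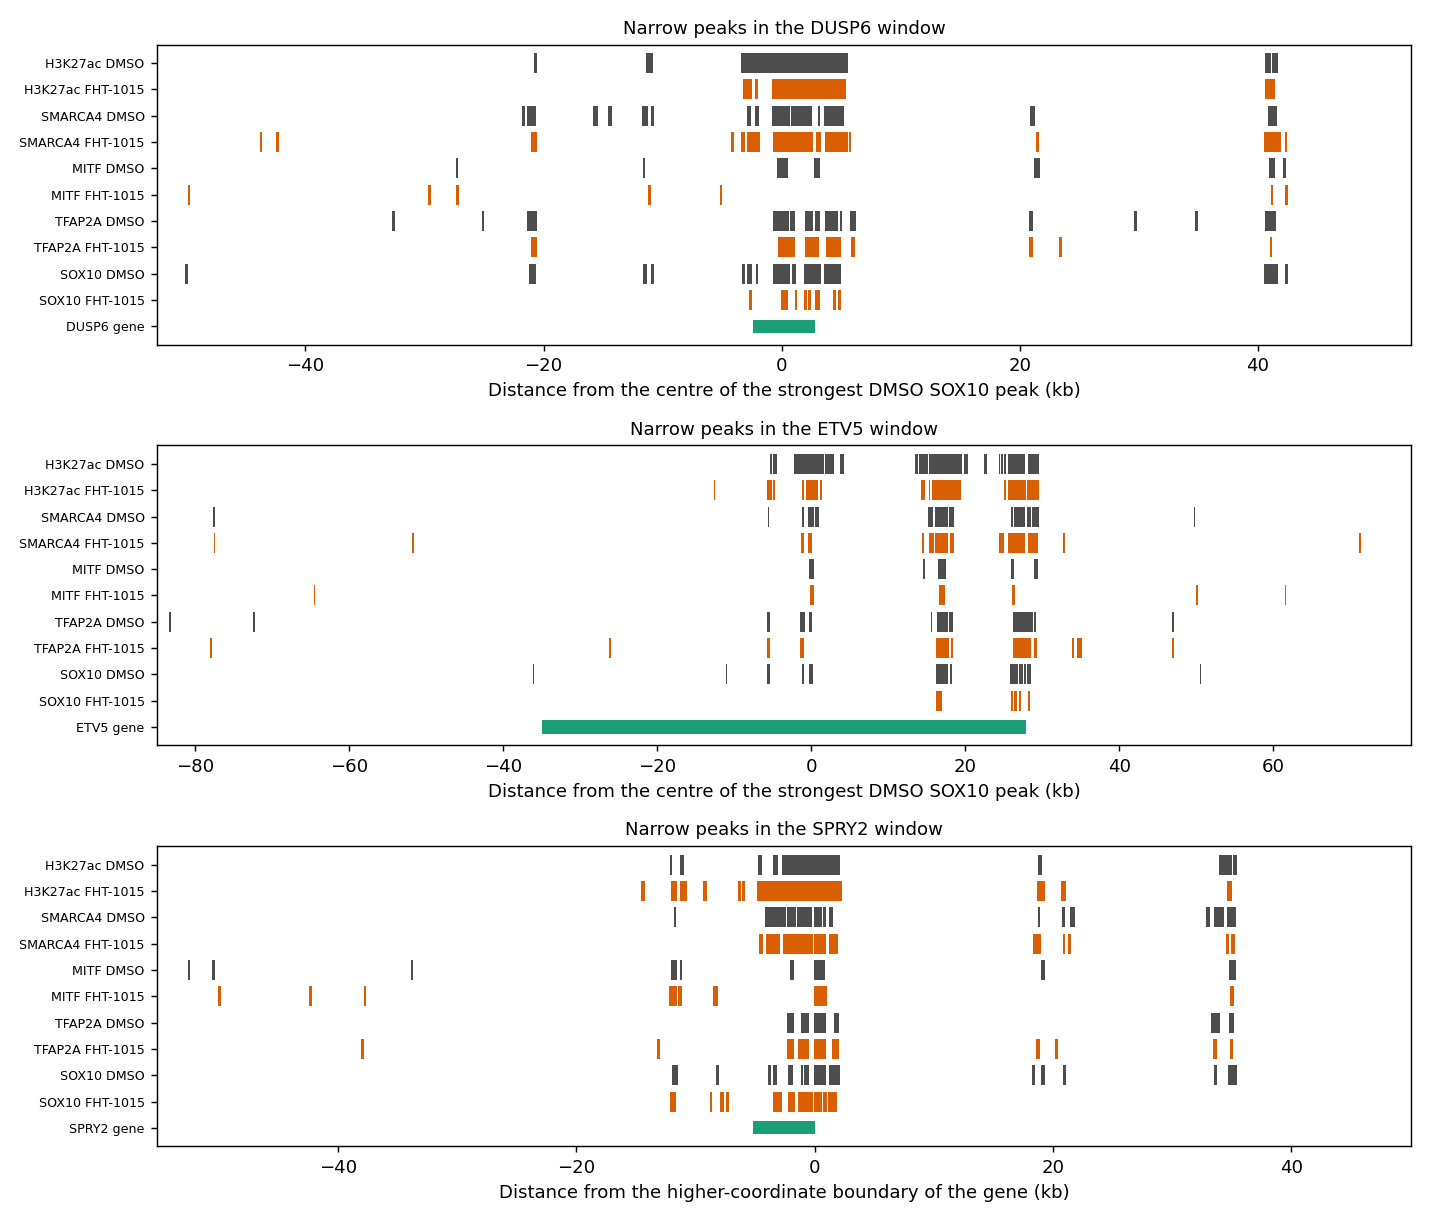
Peaks of the 5 antibodies in DMSO and FHT-1015 at DUSP6, ETV5 and SPRY2, each bar a peak, plotted by distance in kb from the centre of the strongest SOX10 peak (DUSP6, ETV5) or from the higher-coordinate end of the gene (SPRY2). SOX10 rows are sparser with FHT-1015, and over the 10 loci 17 of 25 SOX10 peaks within 1 kb of a start and 21 of 99 away from starts and other genes' boundaries were retained.

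Other genes gave the setting for these values. Among 16 other output and feedback genes, SOX10 peaks numbered 187 in DMSO and 77 in FHT-1015 (ratio 0.412). Of these genes 13 were called lower for SOX10, DUSP1, DUSP5, SPRY1, CCND1 and FOS among them, against 73.3% of all genes tested. At 18 genes of the MAP kinase cascade itself SOX10 had 240 and 104 peaks (0.433). At ACTB, GAPDH and TBP together SOX10 had 37 and 18 peaks (0.486). The 10 feedback genes, the 16 other output genes, the 18 cascade genes and these 3 control loci thus had ratios between 0.412 and 0.493. Each was above the genome-wide 0.322. H3K27ac went from 120 to 78 peaks at the 16 output genes (0.650). Of these genes 4 were called lower for H3K27ac, against 24.3% of all genes tested. The H3K27ac ratio was 0.636 at the control loci and 0.914 at the 18 cascade genes. It was 0.893 at the 10 feedback genes and 0.706 over the whole list. TFAP2A and SMARCA4 had ratios of 1.03 and 0.947 at the 16 output genes.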

How the data were processed

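Peak lists from 10 immunoprecipitated libraries were analysed, as deposited by the authors for each library separately. Reads had been handled with BWA, SAMtools, Picard and MACS2 on hg38, per the submitters' processing notes, and settings were not given in the sources used here. The fold enrichment (a ratio over background), the −log10 p and the −log10 q of each peak were the authors' deposited values. Narrow lists were used, and the 4 broad lists served as an alternative. Summit reads and background were recovered from fold and p by assuming a Poisson upper tail. The recovery was checked on simulated data. Summit coverage is the recovered reads over the lowest background of the library. Its ratios carry exact conditional 95% intervals, which cover counting error only. In the SOX10 FHT-1015 library the pileup had been scaled down, and this was undone. Gene positions came from RefSeq (GRCh38.p14). Python 3.11.15, NumPy 2.4.6, SciPy 1.17.1 and pandas 2.3.3 were used.

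For each member the element with the highest −log10 p in DMSO was named per antibody, and the start by peaks within 1 kb. On each element the highest overlapping peak of the other antibodies was read, and a long H3K27ac or SMARCA4 peak can have its summit elsewhere. Members and lists were chosen with earlier results of these data known. The alternatives were windows of 20 and 100 kb, stronger peaks, equal list lengths, broad lists, other overlap rules, and leaving out IER3 or peaks at other genes.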

Additional observations from a re-analysis of the deposited data

How the results depend on the processing

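No paired analysis was possible because each group had 1 library, and no result has a replicate check. Of 42 recomputed peak number ratios over the loci 38 counted as near the value reported, by a loose rule. With q under 0.05 the rule still passed MITF at 0.750 (80 and 60 peaks, 0.965 as reported). It also passed SOX10 at 0.344 (0.493 as reported). Over the whole MITF lists 89.7% of DMSO peaks and 61.1% of FHT-1015 peaks had q under 0.05. Keeping only peaks whose −log10 p reached 10, the ratio was 0.538 for MITF and 0.293 for SOX10, the SPRED1 ratio for MITF reversed to 0.833, and retained shares were 78.4% for H3K27ac, 74.4% for SMARCA4 and 22.4% for SOX10. With lists of equal number the ratio was 1.35 for H3K27ac and reversed to 1.32 for SOX10 and to 1.67 for SOX10 at ETV5, and retained shares were 79.4% for H3K27ac and 52.0% for SOX10. This setting removes the weaker peaks of the longer list. Counting strong DMSO peaks against whole FHT-1015 lists gave retained shares of 46.6% for SOX10, 76.9% for MITF, 80.2% for TFAP2A, 88.2% for H3K27ac and 92.3% for SMARCA4. With at least 50% of the peak covered, the share was 52.4% for H3K27ac and 21.6% for SOX10, and with summits within 200 bp it was 41.7% for H3K27ac, 37.3% for SMARCA4 and 58.0% for TFAP2A. The cause was not tested. SOX10 peaks were fewer at 10 of 10 genes with windows of 100 kb, with q under 0.05 and with coverage of at least 5, at 8 with windows of 20 kb (not SPRED1 and EGR1) and with strong peaks (not SPRY2 and PHLDA1), and at 3 of 9 with lists of equal number. The depth of the libraries, from 0.589 to 1.124 of the input, was not equalised.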
